A study of Rattus norvegicus with 7 samples.

Results

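The genes described here are 10 effectors and regulators of muscle denervation and atrophy, taken by gene symbol from a deposited table of 14702 genes. All 10 symbols were found, each in 1 row. They fall into 3 ubiquitin ligases (Fbxo32, Trim63 and Fbxo30), 3 genes of the FOXO axis (Foxo1, Foxo3 and Klf15) and 4 regulators induced by denervation (Hdac4, Cdkn1a, Gadd45a and Runx1). The samples were thyroarytenoid muscle, the muscle in the body of the vocal fold, from female Long Evans rats aged 8 months. The Pink1-/- group held 3 rats with both copies of Pink1 knocked out, the gene of a mitochondrial kinase that acts in mitophagy, and the WT group held 4 rats. The labels do not say how the knockout was made. RNA was sequenced from 1 library per rat, and the single comparison is Pink1-/- over WT.

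A muscle that loses its nerve supply or its growth signals wastes through a shared programme. FOXO transcription factors, held out of the nucleus by AKT while insulin-like signalling is active, switch on ubiquitin ligases that tag muscle proteins for the proteasome. Glucocorticoids act on some of the same genes, partly through Klf15. Denervation adds a second route, in which the deacetylase Hdac4 represses its target genes, myogenin is released, and Cdkn1a, Gadd45a and Runx1 are induced.

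Only the authors' fitted values per gene were used, so values per rat cannot be shown and the depth of each library is unknown. A level below is an implied level, in CPM (scaled read counts). It was computed for each genotype from the deposited mean and fold change under the assumption of equal library sizes. It is not adjusted for transcript length, so levels are compared between genotypes only and never between genes. Over all genes the levels sum to 1093202 CPM in Pink1-/- and 944526 CPM in WT muscle. The alternative of scaling to equal summed CPM makes these sums equal. The 95% intervals come from a standard error (SE) implied by the deposited likelihood ratio. The median likelihood ratio over all genes is 1.96 times that of a chi-square distribution, and the intervals are not widened for it. A gene is called at an adjusted p under 0.05. Pink1 itself had a log2 fold change of -4.91 in the authors' deposited table, with implied levels of 8.94 CPM in Pink1-/- and 269 CPM in WT muscle. In bulk tissue, fewer cells of a type and less RNA per cell cannot be told apart.

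Of the 10 genes, 1 was called, Fbxo32, which was higher in Pink1-/- muscle. Over all genes 3.05% were called, 1.37% higher and 1.68% lower. At an unadjusted p under 0.05 there were 3 members, Fbxo32, Gadd45a and Trim63, all above 0, beside 17.0% of all genes. Fold changes in the authors' deposited table ran from -0.39 for Runx1 to 1.03 for Fbxo32 on the log2 scale, with 6 of the 10 above 0 and a median of 0.05. Over all genes the median was -0.02, and 48.0% lay above 0. The 3 ligases were all above 0, except that Fbxo30 turned below it when both genotypes were scaled to equal summed CPM, while the FOXO axis and the denervation-induced regulators each had members on both sides of it.

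**Figure D1:**
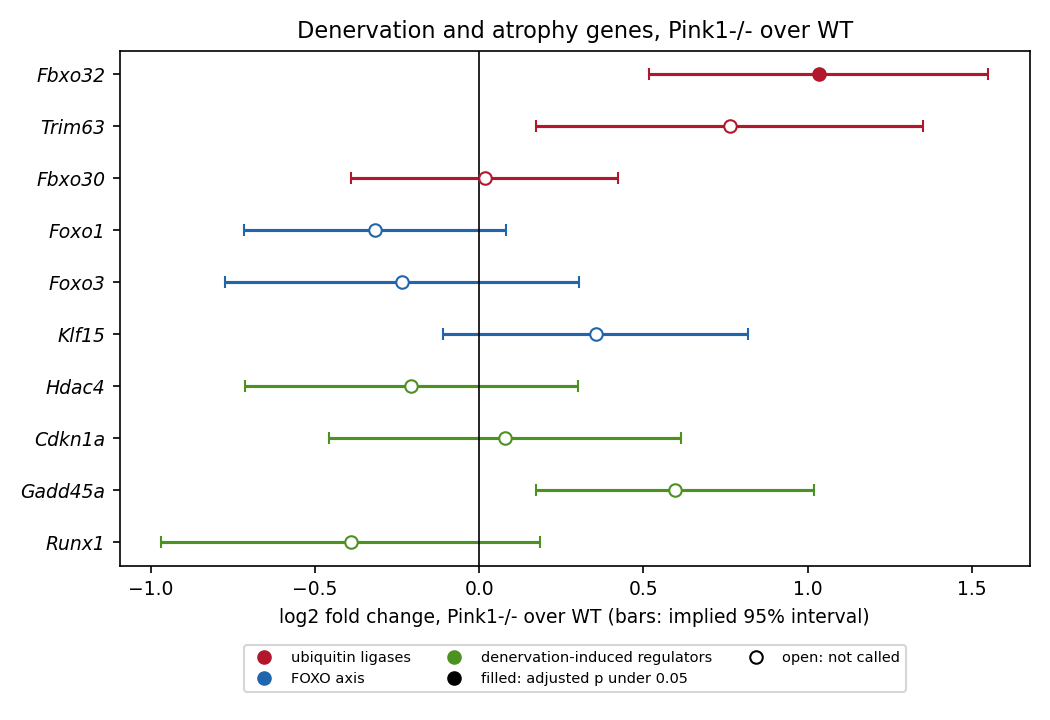
Log2 fold change of each member, Pink1-/- over WT (x axis), with the implied 95% interval as bars, coloured by group. Only Fbxo32, at 1.03, is called (filled), and the intervals of Trim63 and Gadd45a also lie above 0.

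Among the ubiquitin ligases, Fbxo32 encodes atrogin-1, the muscle F-box protein that directs an SCF ligase to its substrates during atrophy. It rose 2.05-fold in Pink1-/- muscle (95% interval 1.43 to 2.93), which is 1.03 on the log2 scale (adjusted p 0.00811, the authors' deposited table). Its implied level was 311 CPM in Pink1-/- and 152 CPM in WT muscle. By p-value it stood at rank 161 of the 14702 genes, and 2.12% of genes of like abundance, within 0.5 of its mean log2 CPM, had a larger log2 fold change. Its implied SE of 0.26 was close to the median of 0.25 for those genes. The call ended under 2 stricter tests. The first left 14 of the 14702 genes called. The second left 0 called, with Pink1 itself uncalled, so it does not single out Fbxo32. Its adjusted p was 0.462 once all likelihood ratios were divided by 1.96, the factor by which their median exceeds that of a chi-square distribution, and 0.623 against an F distribution with 1 and 5 degrees of freedom. Its lowest adjusted p among the alternatives run was 0.00959, with a minimum mean log2 CPM of 1. The muscle-defining genes all lay above 0. Relative to their median, an alternative chosen after the data were seen, Fbxo32 stood at 0.19 on the log2 scale. Of the 14702 genes, 484 lay above that median.

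Trim63 encodes MuRF1, a ring-finger ligase that targets sarcomere proteins such as myosin. Its implied level was 120 CPM in Pink1-/- and 70.6 CPM in WT muscle. The fold was 1.70 (95% interval 1.13 to 2.55), but Trim63 was not called (p 0.0112, adjusted p 0.147, the authors' deposited table). Its implied SE of 0.30 was 1.43 times the median of genes of like abundance, and a fold of 1.94 would have been needed for a call. The intervals of Fbxo32 and Trim63 overlapped over most of their length. A difference between the 2 genes was not tested, since both come from the same libraries.

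Fbxo30, also known as MUSA1, is an F-box ligase that BMP signalling restrains in denervated mouse muscle. Its implied level was 40.7 CPM in Pink1-/- and 40.3 CPM in WT muscle, a fold of 1.01 with an interval of 0.764 to 1.34. In the authors' deposited table it stood at 0.02 on the log2 scale (adjusted p 0.981), a value that turned to -0.19 when both genotypes were scaled to equal summed CPM. The interval of Fbxo30 ended below the start of the interval of Fbxo32, but a difference between them was not tested.

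The Trim63 start region is shown because rodent MuRF1 is a textbook joint target of FOXO factors and of the glucocorticoid receptor, whose own genes are described next. RefSeq (GRCr8) gives the region chr5:151816986-151817208, plus strand, which ends just before the first annotated base of the gene. The start site of the promoter table, from which motif positions are counted, lies 27 bases further downstream. Capitals mark a glucocorticoid receptor element and, after a gap of 1 base, a FOXO element.
Trim63: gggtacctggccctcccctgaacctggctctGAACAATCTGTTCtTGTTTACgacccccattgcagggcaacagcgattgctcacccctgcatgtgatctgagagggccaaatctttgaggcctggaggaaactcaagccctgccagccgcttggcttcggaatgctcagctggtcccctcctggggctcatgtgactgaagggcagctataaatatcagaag

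In all, 5 motifs were searched on both strands in the 250 bases before each start site. The set searched held 33469 start regions, those of 8 members among them, and had none for Fbxo32 or Foxo3. The glucocorticoid receptor element GAACANNNTGTTC was held by Trim63 alone among the 8 members, from 219 to 207 bases before the start site of the promoter table, and by 0.0418% of all start regions. The FOXO element GTAAACA, found here on the minus strand, was likewise held by Trim63 alone, from 205 to 199 bases before that start site, against 3.21% of all start regions. The same region held the E-box CAGCTG (12% of all start regions) and the TATA box TATAAA (12.9%), which no other member did. The RUNX element TGTGGT (14.5% of all start regions) was found in none of the 8. The motifs do not overlap one another, and a match is a run of letters, not a measured binding site.

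**Figure D2:**
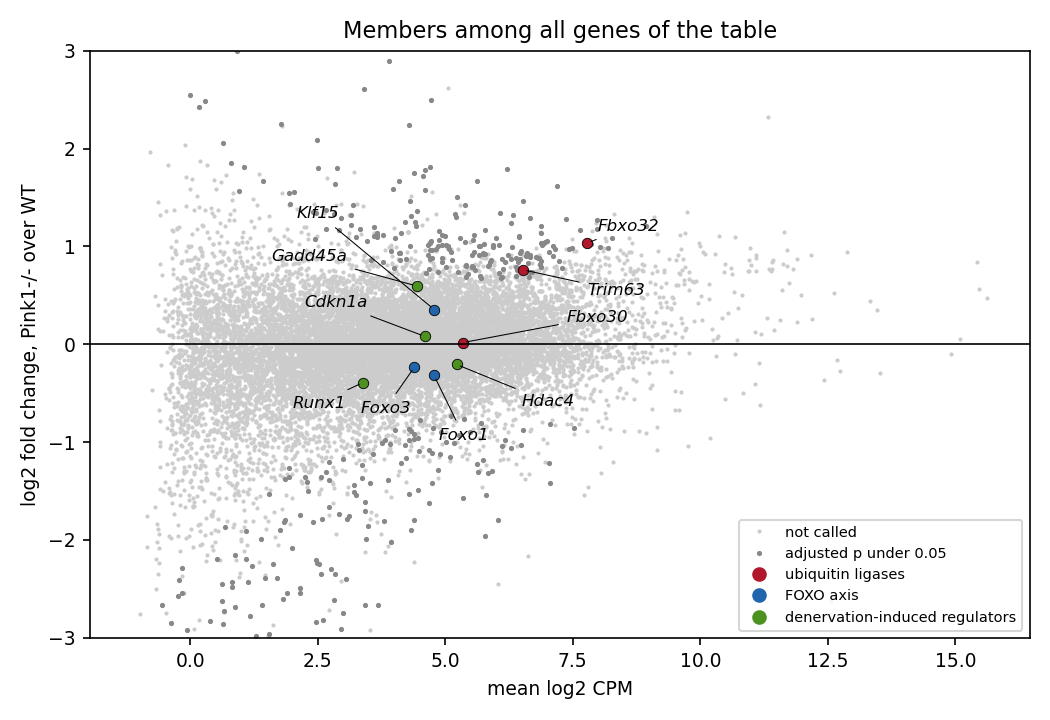
Mean log2 CPM (x axis) against log2 fold change, Pink1-/- over WT (y axis), for all genes (small dots, darker when called) with the 10 members in colour; 127 genes beyond 3 on the log2 scale in either direction are not drawn. Fbxo32 lies among the called genes of its abundance, Trim63 and Gadd45a at the upper edge of the uncalled ones, and the other 7 within the bulk.

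The FOXO axis showed no called gene, and Foxo1 and Foxo3 lay below 0 while Klf15 lay above it. Foxo1, a FOXO factor that fasting and glucocorticoids induce in muscle, had implied levels of 24.1 CPM in Pink1-/- and 30.0 CPM in WT muscle. It stood 1.25-fold lower, or -0.32 on the log2 scale, with an interval of -0.72 to 0.08 (adjusted p 0.437, the authors' deposited table). Foxo3, which drives both autophagy and ligase genes in atrophy, had 19.1 CPM in Pink1-/- and 22.5 CPM in WT muscle. Its log2 fold change was -0.23 with an interval of -0.77 to 0.30 (adjusted p 0.728, the authors' deposited table). Transcript levels do not show where the FOXO proteins were or whether AKT had phosphorylated them.

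Klf15, a glucocorticoid-induced factor that promotes amino acid breakdown in muscle, had implied levels of 31.5 CPM in Pink1-/- and 24.6 CPM in WT muscle. Its log2 fold change was 0.35 with an interval of -0.11 to 0.82 (adjusted p 0.460, the authors' deposited table). For Foxo1, Foxo3 and Klf15 an observed fold of 1.56, 1.83 and 1.68 would have been needed for a call. True shifts of about that size or less could therefore be missed.

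Among the regulators induced by denervation, none was called and the members pointed both ways. Gadd45a, a growth arrest and DNA damage protein that is induced in denervated muscle and promotes atrophy in mice, came nearest, with 26.9 CPM in Pink1-/- and 17.8 CPM in WT muscle. Its fold of 1.51 had an interval of 1.13 to 2.03, and the gene was not called (p 0.00573, adjusted p 0.103, the authors' deposited table). The fold needed for a call was 1.61. Cdkn1a, the cell cycle inhibitor p21, had 25.1 CPM in Pink1-/- and 23.8 CPM in WT muscle. Its log2 fold change was 0.08 (adjusted p 0.926, the authors' deposited table) and turned to -0.13 when the summed CPM were made equal.

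Hdac4, the class IIa histone deacetylase that accumulates in denervated fibres, had implied levels of 34.3 CPM in Pink1-/- and 39.6 CPM in WT muscle. Its log2 fold change of -0.21 had an interval of -0.71 to 0.30 (adjusted p 0.747, the authors' deposited table). Runx1, a transcription factor that is scarce in innervated fibres and limits wasting after denervation in mice, had 8.90 CPM in Pink1-/- and 11.7 CPM in WT muscle. It had the lowest log2 fold change of the 10, -0.39, with an interval of -0.97 to 0.19 (adjusted p 0.535, the authors' deposited table). Gadd45a was the only one of these 4 genes with an interval wholly above 0, and none had one wholly below.

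Beyond the members, 142 genes in 8 lists of partners, inputs and targets were examined, of which 133 were found. Of these, 6 were called (4.51%, beside 3.05% of all genes). All 6 were higher in Pink1-/- muscle, beside 1.37% of all genes called higher. The 6 were Trim72, Pdk4, Chrna1, Myog, Chrnd and Gadd45g. Under scaling to equal summed CPM, Chrna1 and Gadd45g of the 6 were still called and Myh3 was called lower. The muscle-defining genes, with a median log2 fold change of 0.84, lay above 0 in the same comparison, and their part in these values was not tested. All 6 calls ended under both stricter tests applied to Fbxo32, which left 14 and 0 of all genes called. The second called no gene, Pink1 included, so it does not single out these 6.

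Of 20 other muscle ubiquitin ligases, 1 rose and none fell, beside 1.37% of all genes called higher and 1.68% lower. Above 0 were 17 (85%, beside 48% of all genes), with a median log2 fold change of 0.18. Under scaling to equal summed CPM 9 (45%) lay above 0, with a median of -0.03. Over all genes 28.6% then lay above 0, with a median of -0.23. The gene that rose was Trim72, the membrane repair protein MG53, at 1.11 (adjusted p 0.0145, the authors' deposited table), and its call ended with the summed CPM made equal (adjusted p 0.0551). Trim54 and Trim55 encode MuRF3 and MuRF2, the closest relatives of MuRF1, and their log2 fold changes were 0.93 and 0.66 (adjusted p 0.0654 and 0.155, the authors' deposited table). Fbxo40, a muscle F-box protein that targets the insulin receptor substrate IRS1, stood at 0.81 (adjusted p 0.125, the authors' deposited table). The log2 fold changes of all 3 MuRF genes were above 0 both as deposited and under scaling to equal summed CPM, while relative to the muscle-defining median Trim63 was at -0.08, Trim55 at -0.18 and Trim54 at 0.09, and none of the 3 was called.

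The SCF core and its E2 partners, the machinery that Fbxo32 and Fbxo30 plug into, held no called gene among 12. The median was 0.20 and 10 (83.3%) lay above 0, beside 48% of all genes. Under scaling to equal summed CPM 6 (50%) lay above 0, beside 28.6% of all genes. The smallest p belonged to Ube2d1, a ubiquitin-conjugating enzyme, at 0.76 (adjusted p 0.111, the authors' deposited table). Ube2m, which conjugates NEDD8 to cullins, stood at 0.47 (adjusted p 0.225, the authors' deposited table).

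Inputs to FOXO through insulin, AKT and mTOR also held no called gene, with 21 of 22 listed genes found and a median of 0.12. Above 0 were 15 of the 21 (71.4%, beside 48% of all genes). With the summed CPM made equal 7 (33.3%, beside 28.6% of all genes) lay above 0. The smallest p was that of Eif4ebp1, a repressor of translation that mTOR inactivates, at 0.58 (adjusted p 0.216, the authors' deposited table). Akt2, the AKT form tied to glucose uptake in muscle, stood at 0.29, and Pik3cb, a catalytic subunit of PI3 kinase, at -0.45 in the authors' deposited table. Foxo4 was at 0.28 (adjusted p 0.612, the authors' deposited table), and Foxo6 was not found.

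Of 17 FOXO target genes other than the members, 1 rose and none fell. Over all genes 1.37% were called higher and 1.68% lower. Above 0 were 13 of the 17 (76.5%, beside 48% of all genes), with a median of 0.14. Under scaling to equal summed CPM 7 (41.2%) lay above 0, beside 28.6% of all genes, with a median of -0.07. Pdk4, which restrains pyruvate oxidation, rose 2.43-fold (adjusted p 0.0176, the authors' deposited table), and its call ended with the summed CPM made equal (adjusted p 0.0534). Depp1, a small autophagy regulator induced by FOXO, and Bcl6, a transcriptional repressor, stood at 0.75 and 0.58 (adjusted p 0.0692 and 0.141, the authors' deposited table). Bnip3, a mitophagy receptor induced by Foxo3 in muscle, was at 0.40 (adjusted p 0.359, the authors' deposited table).

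The glucocorticoid receptor and targets of it or of Klf15 held no called gene among 15. The median was 0.23 and 11 (73.3%) lay above 0, beside 48% of all genes. Under scaling to equal summed CPM 9 (60%) lay above 0, beside 28.6% of all genes. Nr3c1, the receptor itself, and Fkbp5, a sensitive target of it, both stood at -0.08 (adjusted p 0.904 and 0.899, the authors' deposited table). Mt2A, a metallothionein, had the smallest p of the list, at 1.43 (adjusted p 0.0870, the authors' deposited table). Lpin1, a phosphatidate phosphatase, and Slc2a4, the insulin-regulated glucose transporter, stood at 0.80 and 0.75 (adjusted p 0.145 and 0.179, the authors' deposited table).

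Class IIa HDAC, MEF2 and other denervation-induced genes held 3 that rose and none that fell among 24. Over all genes 1.37% were called higher and 1.68% lower. Above 0 were 19 of the 24 (79.2%, beside 48% of all genes), with a median of 0.38. Once the summed CPM were made equal, 16 (66.7%, beside 28.6% of all genes) lay above 0, with a median of 0.17. Chrna1 and Chrnd, subunits of the muscle acetylcholine receptor, rose 2.76-fold and 2.08-fold, and Myog, the myogenin gene, rose 2.32-fold (adjusted p 0.00258, 0.0490 and 0.0292, the authors' deposited table). With the summed CPM made equal, the calls of Chrnd (adjusted p 0.107) and Myog (adjusted p 0.0727) ended, and Chrnd also lost its call with a minimum mean log2 CPM of 1 (adjusted p 0.0552). Myod1, a second myogenic factor, stood at 1.34 (adjusted p 0.0974, the authors' deposited table). In denervated muscle Myog acts downstream of Hdac4 and upstream of Fbxo32 and Trim63 in mice. Here the log2 fold changes were -0.21 for Hdac4, 1.21 for Myog, 1.03 for Fbxo32 and 0.76 for Trim63 in the authors' deposited table. Hdac4 and Trim63 were not called, and a link between these genes was not tested. Relative to the muscle-defining median 4 of the 24 listed genes lay above 0, among them Chrna1 at 0.63, Myog at 0.37 and Chrnd at 0.22. Another gene of the list, Myh3 for embryonic myosin, stood at -1.29 (adjusted p 0.105, the authors' deposited table) and was called lower once the summed CPM were made equal (adjusted p 0.0381).

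The list of cell cycle arrest genes held relatives of Cdkn1a and Gadd45a, but also drivers of the cycle such as Ccnd1 and Cdk4. Its counts therefore cover both. Of its 21 genes found, 1 rose and none fell, beside 1.37% of all genes called higher and 1.68% lower. Above 0 were 8 of the 21 (38.1%, beside 48% of all genes), with a median of -0.09. With the summed CPM made equal 5 (23.8%, beside 28.6% of all genes) lay above 0. Gadd45g, a close relative of Gadd45a, rose 2.49-fold (adjusted p 0.00343, the authors' deposited table). The third family gene, Gadd45b, stood at 0.31 (adjusted p 0.714, the authors' deposited table). Relatives of Cdkn1a in the same inhibitor family, Cdkn1b and Cdkn1c, stood at -0.15 and -0.40 in the authors' deposited table. Cdkn2b, an inhibitor of cyclin D kinases, and Ccnd1, cyclin D1, stood at -1.15 and -0.70 (adjusted p 0.147 and 0.209, the authors' deposited table). The log2 fold changes of all 3 Gadd45 genes were above 0 as deposited and with the summed CPM made equal, while relative to the muscle-defining median Gadd45a was at -0.24, Gadd45b at -0.53 and Gadd45g at 0.47. Of the 3, Gadd45g was called.

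The list of RUNX family genes and partners held no called gene. In the family, Runx2, a factor of bone and cartilage, stood at -0.70 (adjusted p 0.273, the authors' deposited table), and Runx3 was not found. Outside the family, Runx1t1 stood at -0.14 and Cbfb, the shared partner of RUNX proteins, at 0.33 (adjusted p 0.866 and 0.530, the authors' deposited table).

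**Figure D3:**
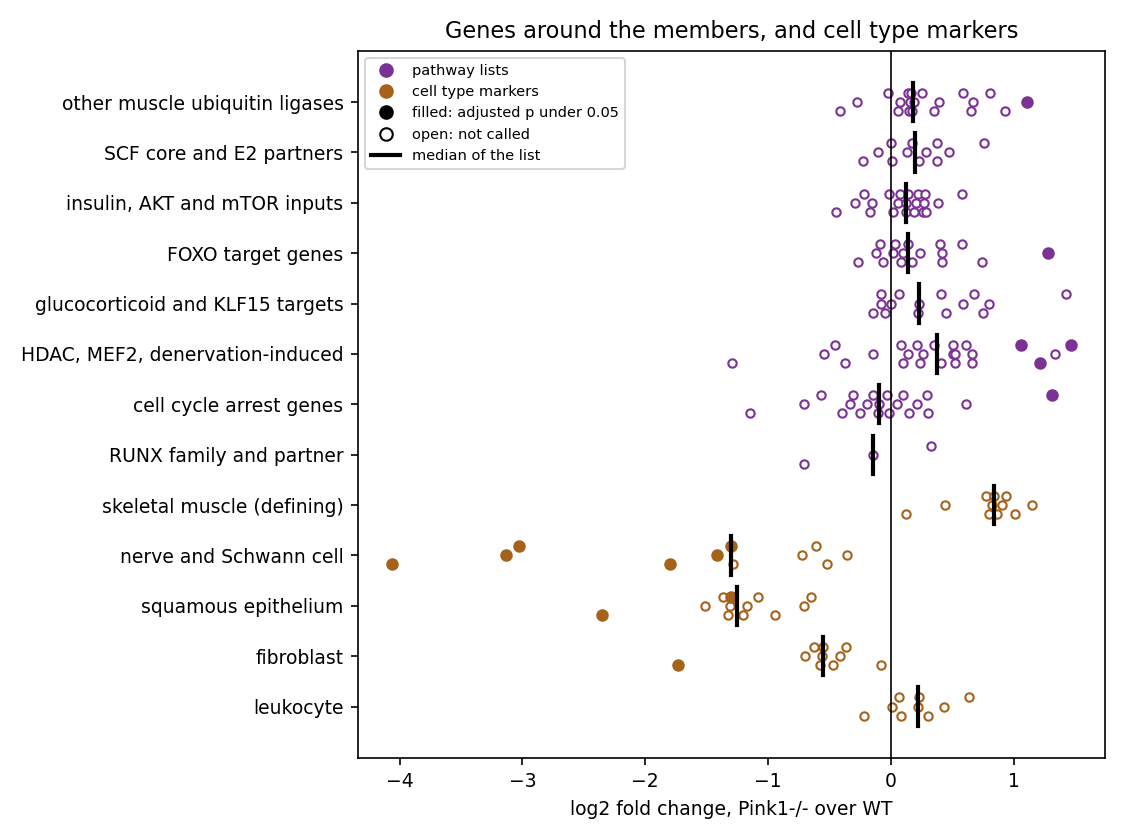
Log2 fold change, Pink1-/- over WT (x axis), of each measured gene in the 8 pathway lists and in 5 lists of cell type markers (rows), with called genes filled and the median of each list as a bar. The denervation-induced list has a median of 0.38, the muscle-defining genes of 0.84, and the nerve and Schwann cell genes of -1.30.

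Markers of muscle and of other cell types were read in the same comparison. All 11 muscle-defining genes found lay above 0, with a median log2 fold change of 0.84 and values from 0.13 to 1.15, and none was called; Ttn was not found. Their implied levels summed to 99459 CPM in Pink1-/- and 57938 CPM in WT muscle. None was near 0 CPM, so the defining markers of the labelled tissue were present. The median of 0.84 lies between the values of Trim63, 0.76, and Fbxo32, 1.03, in the authors' deposited table. Relative to that median Fbxo32 stood at 0.19, Trim63 at -0.08 and Gadd45a at -0.24. The other 7 members ran from -0.49 for Klf15 to -1.23 for Runx1. Over all genes, 484 of 14702 lay above that median. The part of muscle content in the rise of Fbxo32 was not tested.

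Over all genes 1.68% were called lower and 48% lay above 0. All 11 nerve and Schwann cell genes lay below 0 and 6 fell, with a median of -1.30. Their implied levels summed to 274 CPM in Pink1-/- and 509 CPM in WT muscle. They included the myelin gene Mbp, the glial gene S100b and the neurofilament genes Nefl, Nefm and Nefh, whose implied levels were 0.974, 0.389 and 0.706 CPM in Pink1-/- muscle, against 16.3, 3.41 and 5.78 CPM in WT muscle. All 12 squamous epithelium genes lay below 0 and 2 fell, Krt13 and Dsc3, with a median of -1.25 and sums of 931 CPM in Pink1-/- and 1985 CPM in WT muscle. All 10 fibroblast genes lay below 0, with a median of -0.55 and sums of 2521 CPM in Pink1-/- and 3484 CPM in WT muscle. Of them 1 fell, Thy1 at -1.73, and the 9 uncalled genes ran from -0.08 to -0.70. Leukocytes also express Runx1, and of 9 leukocyte genes 8 lay above 0, with a median of 0.22, no call and sums of 385 CPM in Pink1-/- and 332 CPM in WT muscle. Epithelial and fibroblast cells can express Cdkn1a, Foxo3 and Runx1 as well. The part of these cell types in the members' values was not tested.

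**Figure D4:**
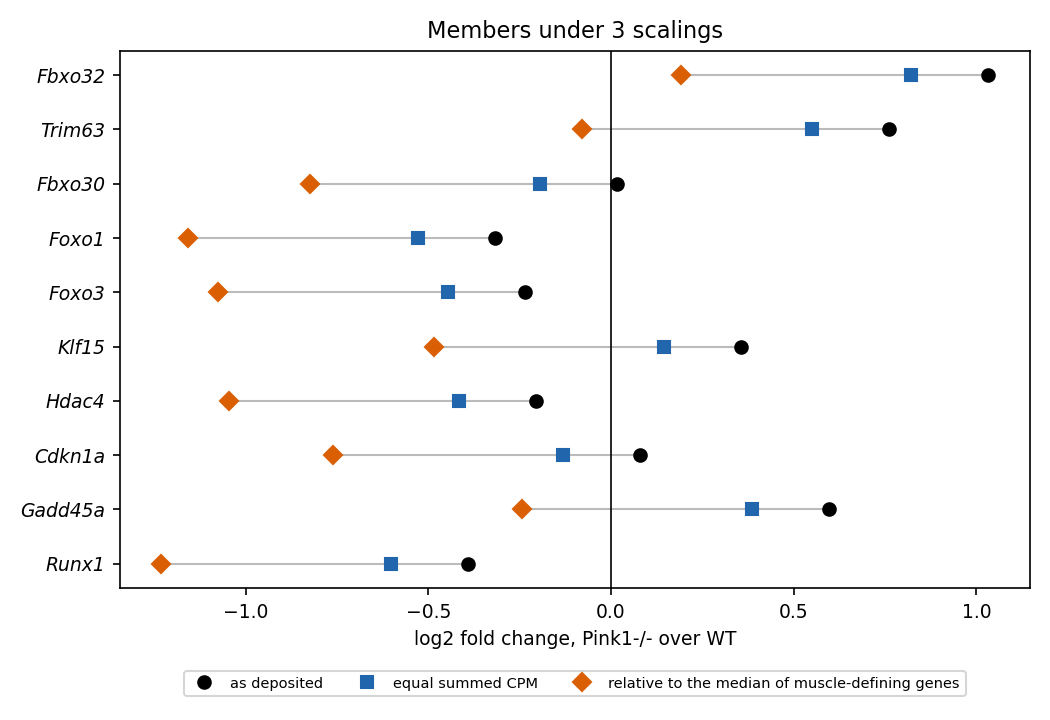
Log2 fold change of each member, Pink1-/- over WT (x axis), as deposited (circles), scaled to equal summed CPM (squares) and relative to the median of the muscle-defining genes (diamonds). Fbxo32 lies above 0 in all 3, at 1.03, 0.82 and 0.19. Both alternatives lower every value by a constant, so Foxo1, Foxo3, Hdac4 and Runx1, below 0 as deposited, must lie below 0 in all 3.

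Scaling to equal summed CPM lowers every log2 fold change by 0.21 and moves the median of all genes to -0.23, with 28.6% of them above 0. Under it Fbxo32 was still called, at 0.82 with an adjusted p of 0.0448, and no other member was, beside 4.29% of all genes. Chrna1 and Gadd45g then had adjusted p-values of 0.0129 and 0.0192.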

How the data were processed

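RNA was sequenced from thyroarytenoid muscle of 3 Pink1-/- and 4 WT female rats, 1 library per rat. The submitters' processing notes list edgeR 3.9 and RSEM but not what each did, and no source used here gives the aligner, build, annotation, strand setting, low-count filter or scaling, so overlapping or antisense genes may share reads. The authors' deposited table holds, for each gene and per the file headers, a log2 fold change, a mean log2 CPM, a score (the likelihood ratio) and a raw and an adjusted p-value. The deposited p-values match the chi-square upper tail at 1 degree of freedom (largest relative difference 8.29e-13). With no values per library in use, depth and the spread between rats are unknown.

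Calls are those of the authors' deposited table, over all genes. The implied SE equals the absolute log2 fold change over the root of the likelihood ratio. Calculations used Python 3.11.15 and scipy 1.17.1 and were tested on simulated data. The members and gene lists were chosen with earlier results of these data known. All 10 members are named, and from each list the called genes and up to 4 with the smallest p (2 for markers), except a gene that is not reported here; genes named besides, as relatives or partners of a member, were chosen after their values were seen, as were the motifs and the comparison with muscle-defining genes. Alternatives were scaling to equal summed CPM, a minimum mean log2 CPM of 1, 2 stricter reference distributions, and values relative to muscle-defining genes.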

Additional observations from a re-analysis of the deposited data

How the results depend on the processing

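Under scaling to equal summed CPM, 63 genes were called higher and 568 lower, a share of 9.98% higher against 44.9% as deposited. The member count stayed at 1, Fbxo30 and Cdkn1a turned to -0.19 and -0.13, and the lists of other ligases and of FOXO targets had 0 calls each. With a minimum mean log2 CPM of 1, 172 genes were called higher and 154 lower, a share of 52.8% higher, and Fbxo32 had an adjusted p of 0.00959. With likelihood ratios divided by 1.96, 14 genes were called, 4 higher and 10 lower, with 0 members and 0 genes of the pathway lists. Fbxo32, still at 1.03, then had an adjusted p of 0.462. Against an F distribution with 1 and 5 degrees of freedom, 0 genes were called, so Pink1 was uncalled too. Fbxo32 at 1.03 then had an adjusted p of 0.623. By the likelihood ratio test as deposited, 2503 genes had an unadjusted p under 0.05. Relative to the muscle-defining genes, an alternative chosen after the data were seen and given without calls since the error of their median is unknown, Fbxo32 stood at 0.19, Trim63 at -0.08, Fbxo30 at -0.82, Foxo1 at -1.16, Foxo3 at -1.07, Klf15 at -0.49, Hdac4 at -1.05, Cdkn1a at -0.76, Gadd45a at -0.24 and Runx1 at -1.23. Over all genes, 484 of 14702 lay above the muscle-defining median. Leaving out each rat was not run, since no values per library were used. Uncalled members needed observed folds of 1.56 to 1.94 for a call, so true differences of about that size or less could be missed.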

Other observations

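Markers of the remaining cell types were also measured. Of 8 endothelial genes 5 lay above 0 and none was called, with a median log2 fold change of 0.17 in Pink1-/- over WT muscle. Of 8 adipocyte genes 4 lay above 0 and none was called (median -0.28), although Lipe, a triglyceride lipase that muscle also expresses, stood at 0.88 (adjusted p 0.0595, the authors' deposited table). Of 4 satellite cell genes found, 2 lay above 0 and none was called. Cdh15, the M-cadherin of myogenic cells, had the smallest p, at 1.13 (adjusted p 0.0898, the authors' deposited table), and Pax7 was not found. Of 5 cartilage genes 4 lay below 0 and none was called (median -0.52). Of 9 gland and respiratory epithelium genes 2 fell, Tff2 and Bpifb1, beside 1.68% of all genes called lower. Of the 9, 7 lay below 0 (median -0.50), with implied sums of 6026 CPM in Pink1-/- and 13830 CPM in WT muscle. The mucin gene Muc5b, not called, made up most of the WT sum, with 633 CPM in Pink1-/- and 10735 CPM in WT muscle, and without it the sums were 5392 CPM in Pink1-/- and 3095 CPM in WT muscle. Bpifa1, a secreted airway protein, was also not called and stood at 2.32, with 4714 CPM in Pink1-/- and 944 CPM in WT muscle (adjusted p 0.153, the authors' deposited table); both genes were chosen after their values were seen.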
